A study of Homo sapiens with 12 samples.

Results

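The genes described here are 5 heavy chains of MHC class I (HLA-B, HLA-C, HLA-E, HLA-F and HLA-G), their shared light chain B2M, and NLRC5, the transactivator of class I genes. They were taken by gene symbol from the count table of each library, where all 7 were found among 44700 genes. The 12 libraries, 3 per group, came from a pair of human metastatic melanoma lines: MALME-3M given IFN-γ at 200 ng/mL for 24 h, untreated MALME-3M, SK-MEL-5 given IFN-γ at 150 ng/mL for 24 h, and untreated SK-MEL-5. All 4 groups carry the genotype label wild type, and each line had its own culture medium. Line and medium therefore cannot be told apart in any comparison between the lines, nor can the dose where treated libraries enter. Cells were seeded in triplicate wells and nothing in the labels says that wells came from separate experiments, so the p-values speak of the spread among these libraries, and that spread may be technical.

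Class I molecules show peptides from inside the cell to CD8 T cells. A polymorphic heavy chain pairs with B2M in the endoplasmic reticulum, a transporter brings in peptides that the proteasome has cut, and the loaded complex moves to the cell surface. HLA-B and HLA-C are classical chains, whereas HLA-E, HLA-F and HLA-G vary little between people and are read mainly by receptors of NK cells. IFN-γ acts in part through the transcription factor IRF1, and it induces NLRC5, which joins the RFX, CREB/ATF and NF-Y factors on a shared promoter module of class I genes. Loss of class I in melanoma is a known route of escape from T cells.

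The RefSeq promoter table (GRCh38.p14) held 5 of the 7 genes, all but HLA-E and NLRC5. The following stretches upstream of the start are shown because these genes rose together with different folds. They run from base -200 to -41 for HLA-B (minus strand, chr6:31357220-31357379), HLA-C (minus strand, chr6:31272133-31272292) and B2M (plus strand, chr15:44711317-44711476), and from -200 to -93 for HLA-G (plus strand, chr6:29827625-29827732). Capitals mark matches on either strand to the letters AANNGAAA (for IRF factors), GGGNNTTCC (for NF-κB), TGACG (for CREB/ATF) or CCAAT (for NF-Y).
HLA-B: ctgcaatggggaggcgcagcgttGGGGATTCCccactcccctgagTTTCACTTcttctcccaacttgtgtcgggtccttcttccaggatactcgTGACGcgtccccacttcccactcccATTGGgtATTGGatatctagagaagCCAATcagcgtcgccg
HLA-C: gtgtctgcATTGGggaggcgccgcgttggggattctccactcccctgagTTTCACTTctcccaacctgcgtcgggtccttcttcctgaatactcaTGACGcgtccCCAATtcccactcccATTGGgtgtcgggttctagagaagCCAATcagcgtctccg
HLA-G: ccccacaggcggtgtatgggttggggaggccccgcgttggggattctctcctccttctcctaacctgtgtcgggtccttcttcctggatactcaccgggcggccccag
B2M: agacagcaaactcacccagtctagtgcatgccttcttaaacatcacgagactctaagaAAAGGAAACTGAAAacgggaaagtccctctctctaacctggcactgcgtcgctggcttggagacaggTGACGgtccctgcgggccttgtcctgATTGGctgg

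Over the 250 bases before the start, HLA-B, HLA-C and HLA-F each held 1 match to AANNGAAA and B2M held 2, which overlapped by their ends. HLA-G held none at any of its 3 listed starts, of which the one most like HLA-B is shown. Matches to these letters lay in 20.3% of all 35116 RefSeq promoters of that length. The GGGNNTTCC letters matched in HLA-B alone among the 5 genes and in 5.78% of all promoters. TGACG matched in HLA-B, HLA-C and B2M (21.2% of all promoters), and CCAAT matched in all 5 genes, between 1 and 4 times (32.0% of all promoters). For HLA-G, CCAAT matched only at the start shown. The HLA-B and HLA-C windows were 89.0% identical, and HLA-B shared 80.4% with HLA-F, 73.2% with HLA-G and 49.5% with B2M. The HLA-G start was picked by this same identity, and its other listed starts were less like HLA-B. A match is a description of the letters and was not tested as a site.

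**Figure D1:**
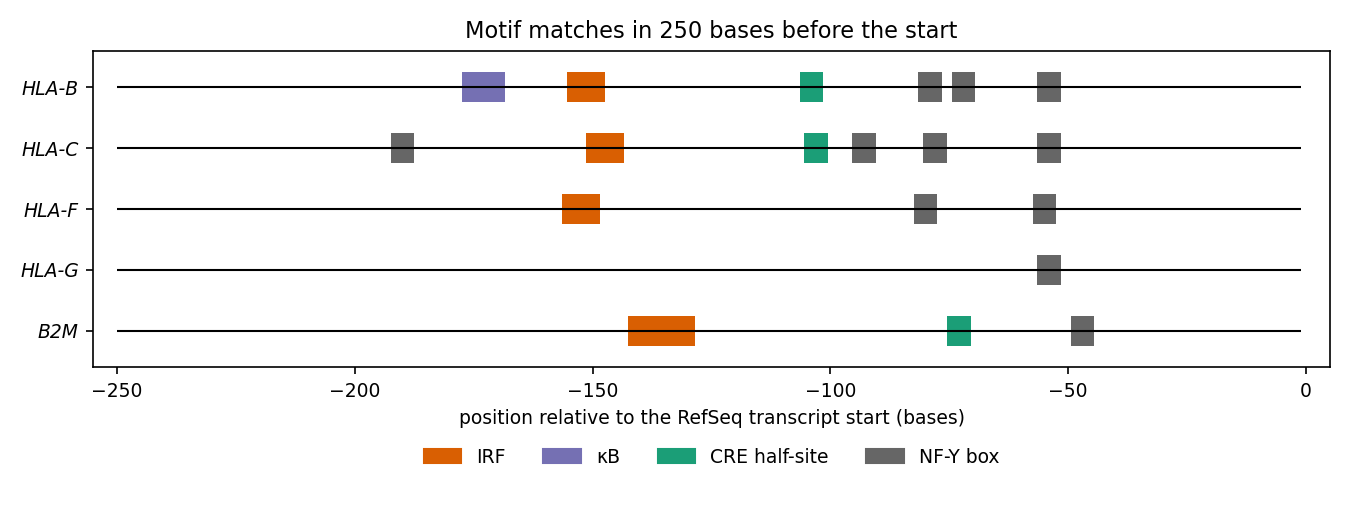
Positions of motif matches in the 250 bases before the RefSeq start of 5 genes, in bases from that start (x axis); coloured boxes are matches on either strand. HLA-B, HLA-C, HLA-F and B2M carry an IRF-type match upstream of the NF-Y boxes nearest the start, whereas HLA-G carries a single NF-Y box.

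Gene counts totalled 15514412 to 22921184 per library. Values below are counts per 1e6 counts (CPM) on TMM-scaled library sizes, and a gene is called when its adjusted p in edgeR's quasi-likelihood test is below 0.05 over 15810 tested genes. All 7 melanocyte lineage markers were detected in all groups and summed to 5830 to 6210 CPM in treated and 6270 to 6300 CPM in untreated MALME-3M, and to 5260 to 5410 CPM in treated and 5570 to 5910 CPM in untreated SK-MEL-5. PTPRC, the pan-leukocyte marker, had 0 counts in the 6 MALME-3M libraries and lay between 0.456 and 0.969 CPM in the 6 SK-MEL-5 libraries. Of 4 T cell markers, CD3D and CD2 had 0 counts in all 12 libraries, and CD3E and CD3G had at most 3 counts in the sum of any group. The summed markers of NK cells reached at most 1.52 CPM in any library, those of B cells 0.127 CPM and those of myeloid cells 0.977 CPM. The 4 fibroblast markers summed to 10.6 to 13.2 CPM in treated and 16.7 to 17.5 CPM in untreated MALME-3M, against 130 to 135 CPM in treated and 162 to 189 CPM in untreated SK-MEL-5, mostly from LUM, and their part in the results was not tested. In such bulk samples, fewer expressing cells and less RNA per cell cannot be told apart.

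All 7 genes rose with IFN-γ in both lines, each with groups that did not overlap. In MALME-3M, 9.51% of all tested genes were called higher (8.77% lower) and the 7 genes had a median log2 fold change of 2.32, against 0.001 over all genes. In SK-MEL-5, 5.98% of all tested genes were called higher (7.05% lower) and the median was 1.99, against -0.03 over all genes. Higher CPM without overlap was seen for 16.6% of all tested genes in MALME-3M and 11.7% in SK-MEL-5. The folds ran from 2.82 (HLA-G) to 14.0 (NLRC5) in MALME-3M and from 2.25 (HLA-G) to 17.9 (NLRC5) in SK-MEL-5.

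**Figure D2:**
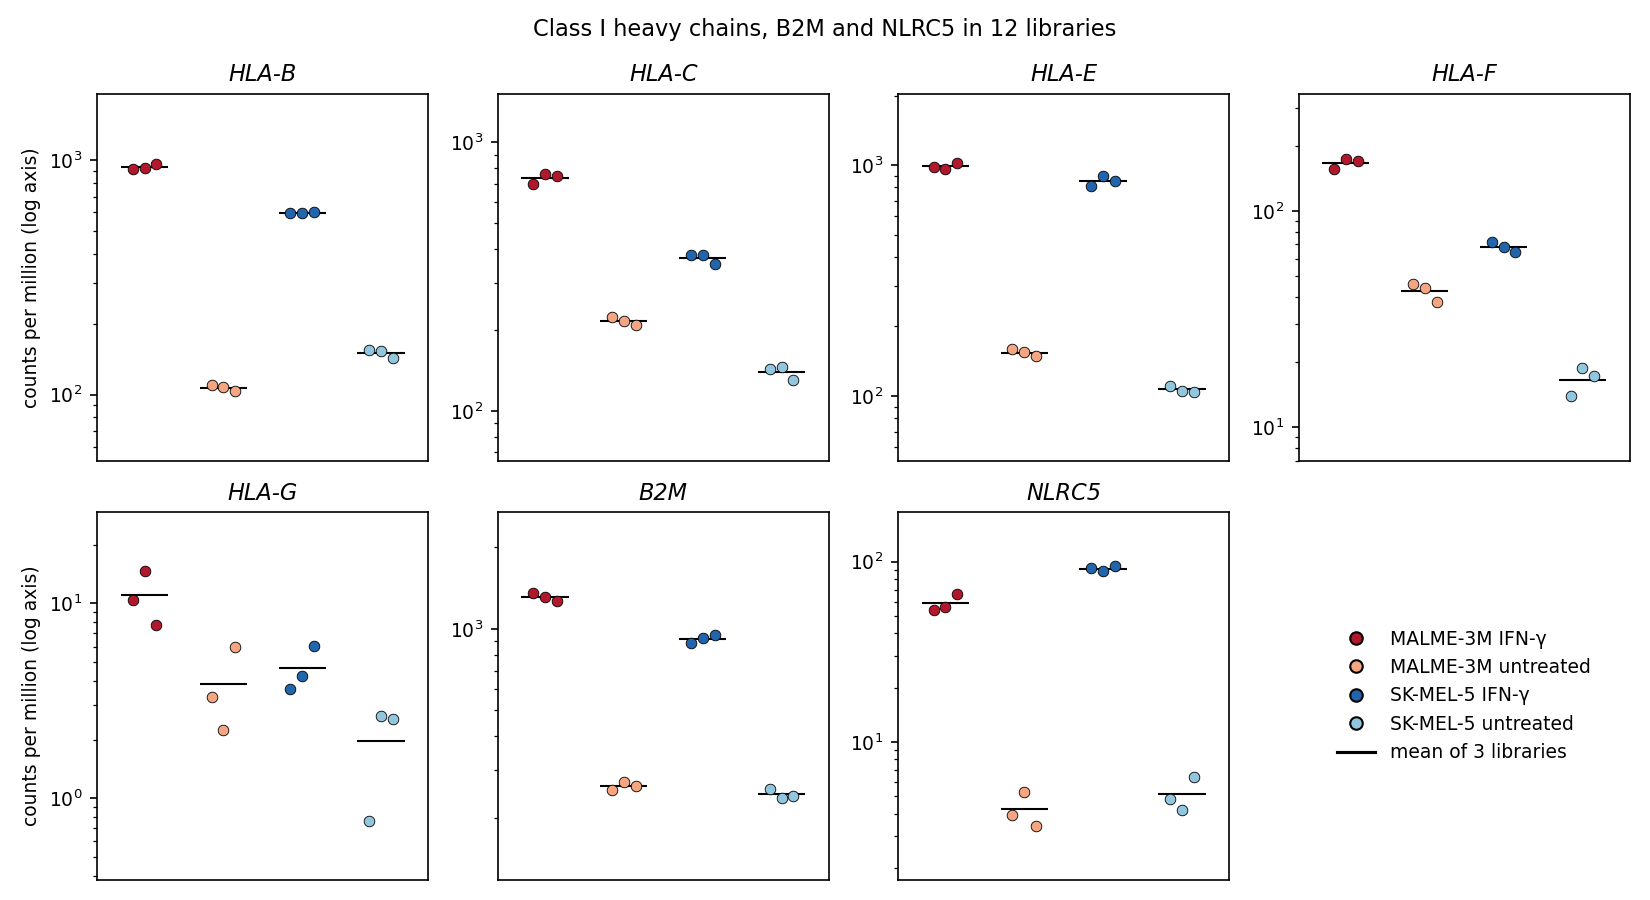
CPM (log axis, own range per gene) of the 7 genes in each of the 12 libraries; points are libraries and bars the mean of 3. Treated libraries lie above the untreated ones of their line for every gene, and HLA-B averages 934 CPM in treated MALME-3M against 597 CPM in treated SK-MEL-5, but 107 CPM in untreated MALME-3M against 150 CPM in untreated SK-MEL-5.

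HLA-B, a classical heavy chain (chr6:31269491-31357188, minus strand, GENCODE 29 on GRCh38), reached 914, 924 and 964 CPM in treated MALME-3M, against 110, 108 and 104 CPM in untreated MALME-3M. It reached 597, 595 and 599 CPM in treated SK-MEL-5, against 154, 153 and 143 CPM in untreated SK-MEL-5. All treated libraries were thus above all untreated ones, with MALME-3M the higher line after treatment and the lower one without it. HLA-B rose 8.72-fold in MALME-3M (log2 3.12 ± 0.05 SE, edgeR adjusted p = 1.49e-19) and 3.98-fold in SK-MEL-5 (1.99 ± 0.04, adjusted p = 5.18e-17). The long gene model of HLA-B reaches over HLA-C, and HLA genes vary between people and resemble one another, which leaves each level open to error where a line's alleles depart from the reference.

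HLA-C, the other classical chain of the set (chr6:31268749-31272130, minus strand), had 700, 761 and 747 CPM in treated MALME-3M, against 223, 216 and 209 CPM in untreated MALME-3M. In treated SK-MEL-5 it had 381, 381 and 353 CPM, against 143, 146 and 130 CPM in untreated SK-MEL-5. MALME-3M lay above SK-MEL-5 in both states without overlap. The rise was 3.41-fold in MALME-3M (log2 1.77 ± 0.05 SE, edgeR adjusted p = 5.76e-15) and 2.66-fold in SK-MEL-5 (1.41 ± 0.05, adjusted p = 2.21e-13), in each line the smallest of the 7 except for HLA-G.

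HLA-E, a ligand of the NKG2A and NKG2C receptors that displays leader peptides of other class I chains (chr6:30489467-30494205, plus strand), had 984, 964 and 1021 CPM in treated MALME-3M, against 159, 155 and 148 CPM in untreated MALME-3M. It had 814, 895 and 857 CPM in treated SK-MEL-5, against 111, 105 and 104 CPM in untreated SK-MEL-5. The treated groups of the lines lay close without overlapping, and the untreated MALME-3M libraries lay above the untreated SK-MEL-5 ones. HLA-E rose 6.42-fold in MALME-3M (log2 2.68 ± 0.05 SE, edgeR adjusted p = 3.39e-18) and 8.02-fold in SK-MEL-5 (3.00 ± 0.05, adjusted p = 6.97e-19).

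HLA-F, a chain that can reach the surface without peptide (chr6:29722775-29738528, plus strand), had 156, 174 and 170 CPM in treated MALME-3M, against 45.8, 44.1 and 37.9 CPM in untreated MALME-3M. It had 71.5, 68.2 and 64.7 CPM in treated SK-MEL-5, against 13.9, 18.7 and 17.2 CPM in untreated SK-MEL-5. The 4 groups stood apart from each other, and MALME-3M was the higher line in both states. The rise was 3.92-fold in MALME-3M (log2 1.97 ± 0.08 SE, edgeR adjusted p = 1.28e-12) and 4.08-fold in SK-MEL-5 (2.03 ± 0.09, adjusted p = 2.49e-12). An antisense gene, HLA-F-AS1, overlaps its exons, and the counting is not known to use strand, so reads of the pair cannot be told apart.

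HLA-G, best known from the placenta (chr6:29826967-29831125, plus strand), was the lowest heavy chain, with 174, 314 and 173 counts (10.5, 14.7 and 7.76 CPM) in treated MALME-3M, against 55, 37 and 115 counts (3.31, 2.23 and 5.99 CPM) in untreated MALME-3M. It had 74, 79 and 93 counts (3.62, 4.25 and 6.06 CPM) in treated SK-MEL-5, against 12, 59 and 50 counts (0.763, 2.63 and 2.53 CPM) in untreated SK-MEL-5. The groups of a line did not overlap, though libraries of 1 group spread up to several-fold. An antisense pseudogene, HCG4P8, overlaps 455 exonic bases of HLA-G, and reads of this pair cannot be told apart either. HLA-G was called in MALME-3M (log2 1.50 ± 0.33 SE, edgeR adjusted p = 0.00342) and, narrowly, in SK-MEL-5 (1.17 ± 0.38, adjusted p = 0.0483). The SK-MEL-5 call was lost with DESeq2 (adjusted p = 0.12) and when any of 7 single libraries was left out (adjusted p 0.0531 to 0.204), and the MALME-3M call was lost with transcript estimated counts (log2 0.67, adjusted p = 0.322), while SK-MEL-5 was then called (log2 2.65, adjusted p = 0.00605).

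B2M, the light chain that pairs with these heavy chains (chr15:44711487-44718877, plus strand), had 1353, 1315 and 1268 CPM in treated MALME-3M, against 253, 271 and 262 CPM in untreated MALME-3M. It had 887, 925 and 949 CPM in treated SK-MEL-5, against 255, 235 and 241 CPM in untreated SK-MEL-5. The untreated groups of the lines overlapped, whereas the treated groups did not. B2M rose 5.00-fold in MALME-3M (log2 2.32 ± 0.05 SE, edgeR adjusted p = 1.46e-17) and 3.77-fold in SK-MEL-5 (1.92 ± 0.05, adjusted p = 2.22e-16).

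NLRC5, the member that acts in the nucleus (chr16:56989485-57083531, plus strand), had 54.0, 56.0 and 66.1 CPM in treated MALME-3M, against 3.91, 5.30 and 3.44 CPM in untreated MALME-3M. It had 91.8, 88.8 and 94.4 CPM in treated SK-MEL-5, against 4.83, 4.19 and 6.39 CPM in untreated SK-MEL-5. The untreated groups overlapped, and all treated SK-MEL-5 libraries lay above all treated MALME-3M libraries. Its change was the largest of the 7 in each line, at log2 3.81 ± 0.14 SE in MALME-3M (edgeR adjusted p = 8.54e-14) and 4.16 ± 0.13 in SK-MEL-5 (adjusted p = 1.26e-14). By fold it ranked 66 of 15810 tested genes from the top in MALME-3M and 45 in SK-MEL-5.

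**Figure D3:**
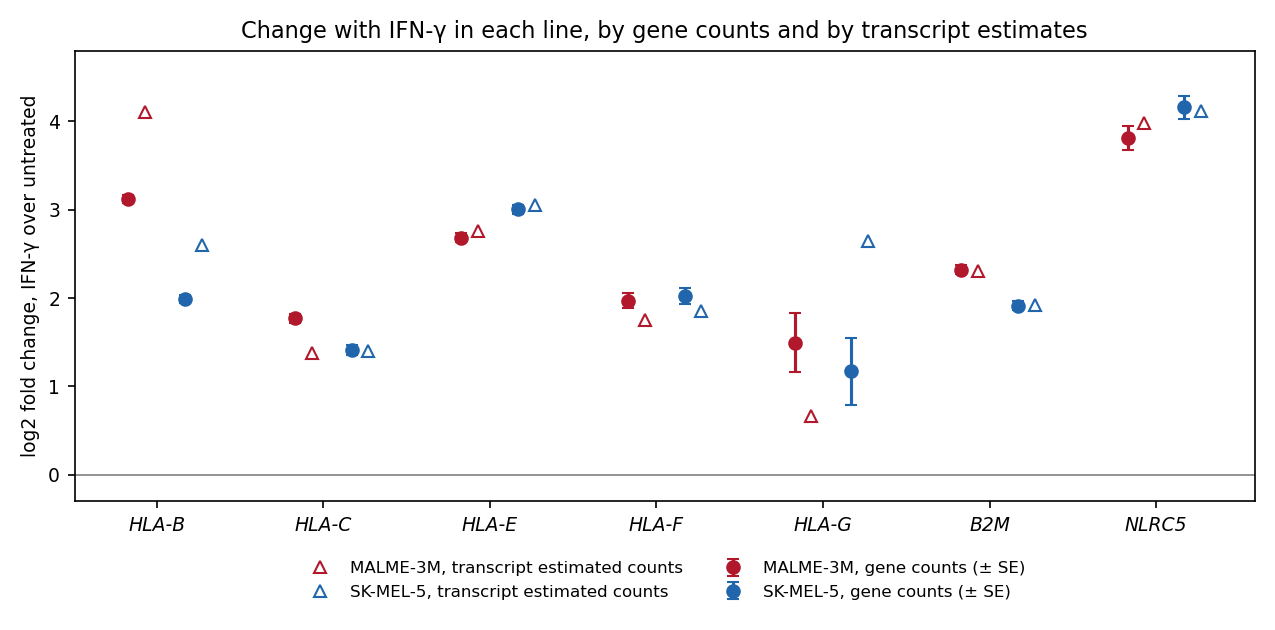
Log2 fold change with IFN-γ of each gene in MALME-3M (red) and SK-MEL-5 (blue); circles with SE bars are from gene counts, and triangles, drawn without error, from transcript estimated counts. The measures lie close for B2M, HLA-E and NLRC5 and part for HLA-B, at 3.12 and 4.11 in MALME-3M, and for HLA-G, at 1.17 and 2.65 in SK-MEL-5.

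The size of the IFN-γ change differed between the lines for 4 of the 7 genes, where 4.46% of all tested genes were called (2.67% with a larger and 1.79% with a smaller value in MALME-3M). The change of HLA-B was larger in MALME-3M than in SK-MEL-5 by 1.13 ± 0.06 on the log2 scale (SE, edgeR adjusted p = 1.11e-09), that of B2M by 0.41 ± 0.06 (adjusted p = 6.30e-04) and that of HLA-C by 0.36 ± 0.07 (adjusted p = 0.00713). The change of HLA-E was smaller in MALME-3M, with a difference of -0.32 ± 0.07 (adjusted p = 0.00687). No call was made for NLRC5 (-0.35 ± 0.20, adjusted p = 0.398), HLA-G (0.33 ± 0.51, adjusted p = 0.826) or HLA-F (-0.06 ± 0.12, adjusted p = 0.886). With transcript estimated counts, calls remained for HLA-B and B2M, while the difference was -0.025 for HLA-C (adjusted p = 0.953) and -0.29 for HLA-E (adjusted p = 0.0698).

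Without IFN-γ, the lines differed for 5 of the 7 genes, where 71.7% of all tested genes were called (34.5% higher and 37.2% lower in MALME-3M, with higher CPM and no overlap for 35.7%). HLA-F was 2.55-fold higher in untreated MALME-3M than in untreated SK-MEL-5 (log2 1.35 ± 0.09 SE, edgeR adjusted p = 1.05e-10), HLA-C 1.55-fold (0.63 ± 0.05) and HLA-E 1.44-fold (0.53 ± 0.05). HLA-G was also called higher (0.93 ± 0.38, adjusted p = 0.0378) with overlapping groups, and this call was lost without SK-MEL-5 untreated replicate 1 (adjusted p = 0.161), without MALME-3M untreated replicate 3 (adjusted p = 0.344) and with DESeq2 (adjusted p = 0.106). With transcript estimated counts, which averaged 31.7 in untreated MALME-3M and 2.33 in untreated SK-MEL-5, HLA-G was called with a log2 difference of 3.83 (adjusted p = 2.04e-05). HLA-B was lower in MALME-3M, with a log2 difference of -0.49 ± 0.04 (adjusted p = 8.90e-09), and of -1.82 with transcript estimated counts (adjusted p = 1.76e-07). B2M was not called (0.10 ± 0.05, adjusted p = 0.0502). Fits that left out a library aside, each of 6 other settings called it (adjusted p 0.00658 to 0.0424), among them a fit to the untreated groups alone. NLRC5 was not called either (-0.29 ± 0.17, adjusted p = 0.122). It was called without SK-MEL-5 untreated replicate 2 (adjusted p = 0.0295) or MALME-3M untreated replicate 2 (adjusted p = 0.0173).

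After IFN-γ, all 7 genes differed between the lines by gene counts, where 71.8% of all tested genes were called (35.4% higher and 36.4% lower in MALME-3M, with higher CPM and no overlap for 37.0%). The heavy chains and B2M were higher in treated MALME-3M than in treated SK-MEL-5, from HLA-F (log2 1.29 ± 0.08 SE, edgeR adjusted p = 3.57e-11) and HLA-G (1.25 ± 0.33) through HLA-C (0.99 ± 0.05), HLA-B (0.65 ± 0.04) and B2M (0.51 ± 0.05) to HLA-E (0.21 ± 0.05, adjusted p = 4.54e-04). NLRC5 went the other way and was lower in treated MALME-3M, with a log2 difference of -0.64 ± 0.11 (adjusted p = 2.28e-05), a call lost with transcript estimated counts (-0.71, adjusted p = 0.178). HLA-B was thus higher in MALME-3M than in SK-MEL-5 after IFN-γ and lower without it. In transcript estimated counts, however, HLA-B was lower in treated MALME-3M than in treated SK-MEL-5 (-0.32, adjusted p = 0.0167), and the HLA-G difference was 1.86 (adjusted p = 0.00101).

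Levels of different genes are ordered here per length, as CPM per kb of exon, with TPM beside it where the order changed. In treated MALME-3M the order was HLA-E (333 ± 9.81, SD, n = 3), HLA-B (306 ± 8.65), HLA-C (294 ± 12.8), B2M (216 ± 7.01), HLA-F (38.4 ± 2.12), HLA-G (6.23 ± 1.99) and NLRC5 (4.74 ± 0.522), in which HLA-B overlapped HLA-C and HLA-G overlapped NLRC5. In untreated MALME-3M, HLA-C led (86.1 ± 2.87), followed by HLA-E (51.8 ± 1.80), B2M (43.1 ± 1.50), HLA-B (35.1 ± 0.991), HLA-F (9.81 ± 0.952), HLA-G (2.18 ± 1.10) and NLRC5 (0.340 ± 0.0785), with no neighbours overlapping. On this scale HLA-B stood below B2M and HLA-C in the untreated cells of this line and beside HLA-C in the treated ones. The gene annotation used for the counting is not given in the sources used here, so the length set against the HLA-B counts is uncertain. By TPM, HLA-B lay below HLA-C in treated MALME-3M too, at 101 ± 12.8 TPM for HLA-B, 155 ± 22.1 TPM for HLA-F, 228 ± 35.6 TPM for HLA-E and 313 ± 43.7 TPM for HLA-C (SD, n = 3). NLRC5 (8.96 ± 3.27 TPM) lay above HLA-G (2.33 ± 0.163 TPM) in treated MALME-3M. In untreated MALME-3M, HLA-F (48.9 ± 9.94 TPM) lay above HLA-E (32.7 ± 1.89 TPM) and HLA-B (5.64 ± 0.548 TPM).

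In treated SK-MEL-5 the order was HLA-E (287.5 ± 13.6 CPM per kb, SD, n = 3), HLA-B (196 ± 0.676), B2M (151 ± 5.14), HLA-C (148 ± 6.42), HLA-F (15.7 ± 0.774), NLRC5 (7.40 ± 0.226) and HLA-G (2.63 ± 0.717), in which B2M overlapped HLA-C. In untreated SK-MEL-5 it was HLA-C (55.7 ± 3.41), HLA-B (49.2 ± 1.97), B2M (40.1 ± 1.67), HLA-E (35.9 ± 1.13), HLA-F (3.82 ± 0.562), HLA-G (1.12 ± 0.596) and NLRC5 (0.415 ± 0.0914), in which HLA-G overlapped NLRC5. HLA-E stood at the top of the order per kb of exon in both treated groups and in neither untreated group, whereas by TPM it lay below HLA-C in treated MALME-3M. In untreated SK-MEL-5, TPM put HLA-E (28.1 ± 2.66 TPM) above HLA-B (21.3 ± 4.48 TPM). There, NLRC5 (0.993 ± 0.444 TPM) also lay above HLA-G (0.104 ± 0.0622 TPM). The place of B2M also depends on the length used: its exons span 6.08 kb over all annotated transcripts, and by TPM, which uses the length of each transcript, B2M was the highest of the 7 in all 12 libraries, at 1223 to 1431 TPM in treated and 268 to 299 TPM in untreated MALME-3M, and at 941 to 999 TPM in treated and 236 to 287 TPM in untreated SK-MEL-5.

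The make-up of the heavy-chain signal is given as a description, with no test. HLA-C held 30.0 ± 0.862% of the summed CPM per kb of the 5 heavy chains in treated MALME-3M, against 46.5 ± 0.108% in untreated MALME-3M, and 22.8 ± 0.938% in treated SK-MEL-5, against 38.2 ± 0.881% in untreated SK-MEL-5 (SD, n = 3). HLA-E held 34.1 ± 0.866% in treated and 28.0 ± 0.148% in untreated MALME-3M, and 44.2 ± 1.29% in treated and 24.6 ± 0.814% in untreated SK-MEL-5. The share of HLA-B was larger in treated than in untreated MALME-3M, at 31.3 ± 0.331% and 19.0 ± 0.125%, and smaller in treated than in untreated SK-MEL-5, at 30.1 ± 0.727% and 33.8 ± 0.261%. By TPM the HLA-B share was larger after treatment in both lines, at 12.7 ± 0.182% against 2.59 ± 0.478% in MALME-3M and 23.6 ± 1.23% against 18.6 ± 2.87% in SK-MEL-5.

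**Figure D4:**
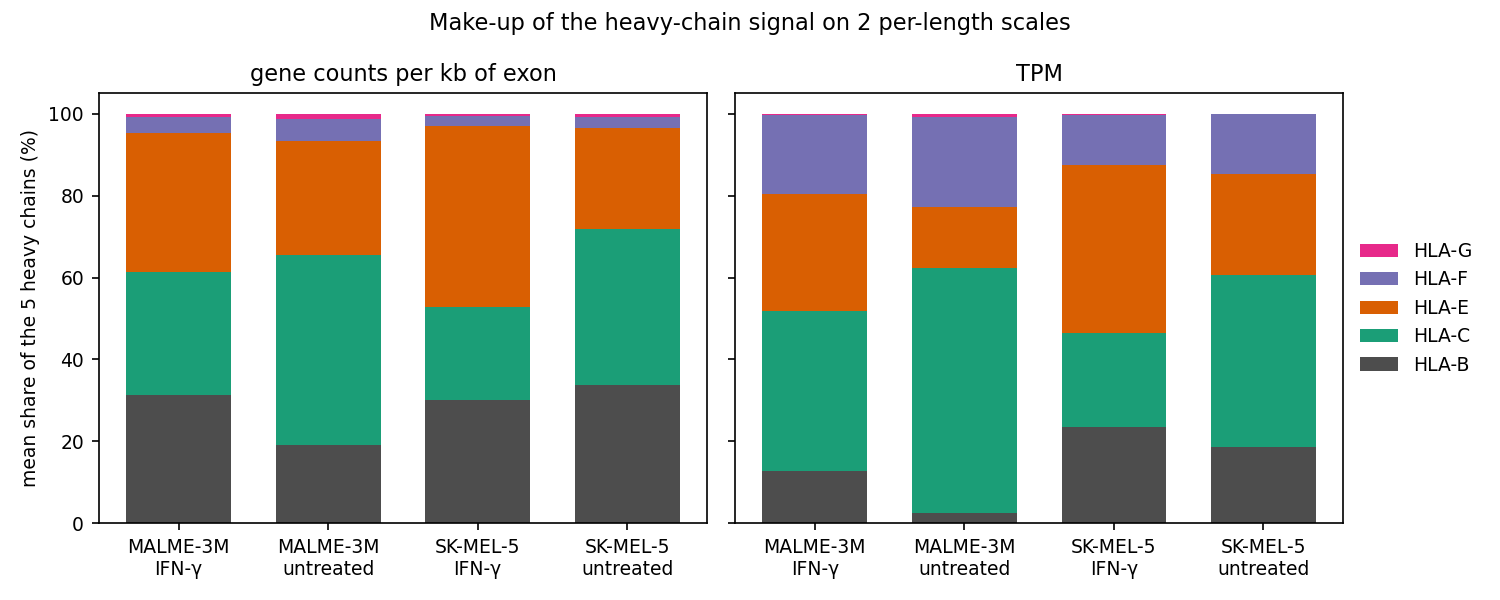
Mean share (%, 3 libraries per bar) of each of 5 heavy chains in their summed signal, by gene counts per kb of exon (left) and by TPM (right). On both scales HLA-C holds a smaller and HLA-E a larger share in treated cells, while the HLA-B share is 31.3% by counts and 12.7% by TPM in treated MALME-3M.

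The ratio of HLA-B to HLA-C, which does not depend on library scaling, was 1.07, 0.998 and 1.06 in treated MALME-3M, against 0.405, 0.410 and 0.409 in untreated MALME-3M (counts per kb of exon). It was 1.29, 1.28 and 1.39 in treated SK-MEL-5, against 0.884, 0.862 and 0.906 in untreated SK-MEL-5. The groups did not overlap in either line, and the log2 change was 1.35 in MALME-3M and 0.58 in SK-MEL-5 (two-sided exact permutation test, p = 0.1 for each, the smallest that 3 against 3 libraries allow). The ratio of the summed heavy chains to B2M was 4.53 ± 0.262 in treated and 4.29 ± 0.251 in untreated MALME-3M with overlapping groups (exact permutation p = 0.3), and 4.29 ± 0.148 in treated and 3.63 ± 0.194 in untreated SK-MEL-5 without overlap (p = 0.1, exact, SD, n = 3). By TPM the ratio in MALME-3M had the opposite direction, with 0.593 ± 0.0399 in treated and 0.785 ± 0.0480 in untreated libraries, which did not overlap.

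Most listed genes that supply peptides to class I rose with IFN-γ too. Of 9 genes of peptide loading, 7 were called higher and 1 lower in MALME-3M (median log2 1.27), and 7 higher and 0 lower in SK-MEL-5 (median 1.04). TAP1, a subunit of the peptide transporter, had the largest log2 change of the list, at 3.84 in MALME-3M and 4.25 in SK-MEL-5. It had 360 ± 34.4 CPM in treated and 25.2 ± 1.98 CPM in untreated MALME-3M (SD, n = 3). In SK-MEL-5 it had 389 ± 13.1 CPM in treated and 20.5 ± 2.04 CPM in untreated libraries. Its partner TAP2 rose by 1.89 ± 0.11 in MALME-3M and 1.90 ± 0.12 in SK-MEL-5 on the log2 scale, and ERAP2, a peptide-trimming enzyme, by 1.50 ± 0.11 in MALME-3M and 1.76 ± 0.12 in SK-MEL-5. TAPBPL, a peptide editor related to tapasin, rose by 1.63 ± 0.14 in MALME-3M and 1.27 ± 0.14 in SK-MEL-5. CANX, the chaperone calnexin that binds new heavy chains, fell by 0.21 on the log2 scale in MALME-3M (edgeR adjusted p = 0.0011) and stood at -0.01 in SK-MEL-5 (adjusted p = 0.967), with no call for the difference (adjusted p = 0.051). All 5 immunoproteasome genes rose in both lines, with a median of 1.86 in MALME-3M and 2.70 in SK-MEL-5 on the log2 scale, and PSMB10, a catalytic subunit, rose by 3.31 ± 0.16 in MALME-3M and 3.22 ± 0.17 in SK-MEL-5. The changes of TAP1 (difference -0.41 ± 0.11, adjusted p = 0.034) and of the catalytic subunits PSMB8 (-0.84 ± 0.11, adjusted p = 7.27e-05) and PSMB9 (-0.86 ± 0.14, adjusted p = 6.81e-04) were smaller in MALME-3M, the direction of HLA-E and opposite to that of HLA-B, HLA-C and B2M.

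Of 13 transcription factors of the class I promoter, 6 were called higher and 1 lower in MALME-3M (median log2 0.20), and 4 higher and 0 lower in SK-MEL-5 (median 0.10). IRF1, which binds IRF-type sites, had 253 ± 31.0 CPM in treated and 2.94 ± 0.559 CPM in untreated MALME-3M, and 204 ± 2.06 CPM in treated and 5.05 ± 0.767 CPM in untreated SK-MEL-5 (SD, n = 3). CIITA, the class II relative of NLRC5, had 137 ± 18.7 CPM in treated and 1.68 ± 0.384 CPM in untreated MALME-3M, and 51.6 ± 5.83 CPM in treated and 2.59 ± 0.404 CPM in untreated SK-MEL-5. The changes of CIITA (difference 2.03 ± 0.24, edgeR adjusted p = 2.03e-05), IRF1 (1.08 ± 0.17, adjusted p = 5.41e-04) and RFX5 (0.70 ± 0.08, adjusted p = 1.88e-05) were larger in MALME-3M. IRF2, another IRF factor, rose on the log2 scale by 0.61 ± 0.06 in MALME-3M and 0.58 ± 0.06 in SK-MEL-5. NFYB, an NF-Y subunit, fell by 0.26 on the log2 scale in MALME-3M (adjusted p = 0.0158) and was not called in SK-MEL-5 (0.05, adjusted p = 0.765). The NF-κB subunits NFKB1 (0.21, adjusted p = 0.0261) and RELA (0.26, adjusted p = 0.0131) rose in MALME-3M and were not called in SK-MEL-5 (adjusted p = 0.975 for NFKB1 and 0.0733 for RELA). The difference between the lines was not called for NFYB, NFKB1 or RELA (adjusted p 0.11, 0.257 and 0.821). RFXAP, RFXANK, CREB1, ATF1, NFYA and NFYC were called in neither line.

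**Figure D5:**
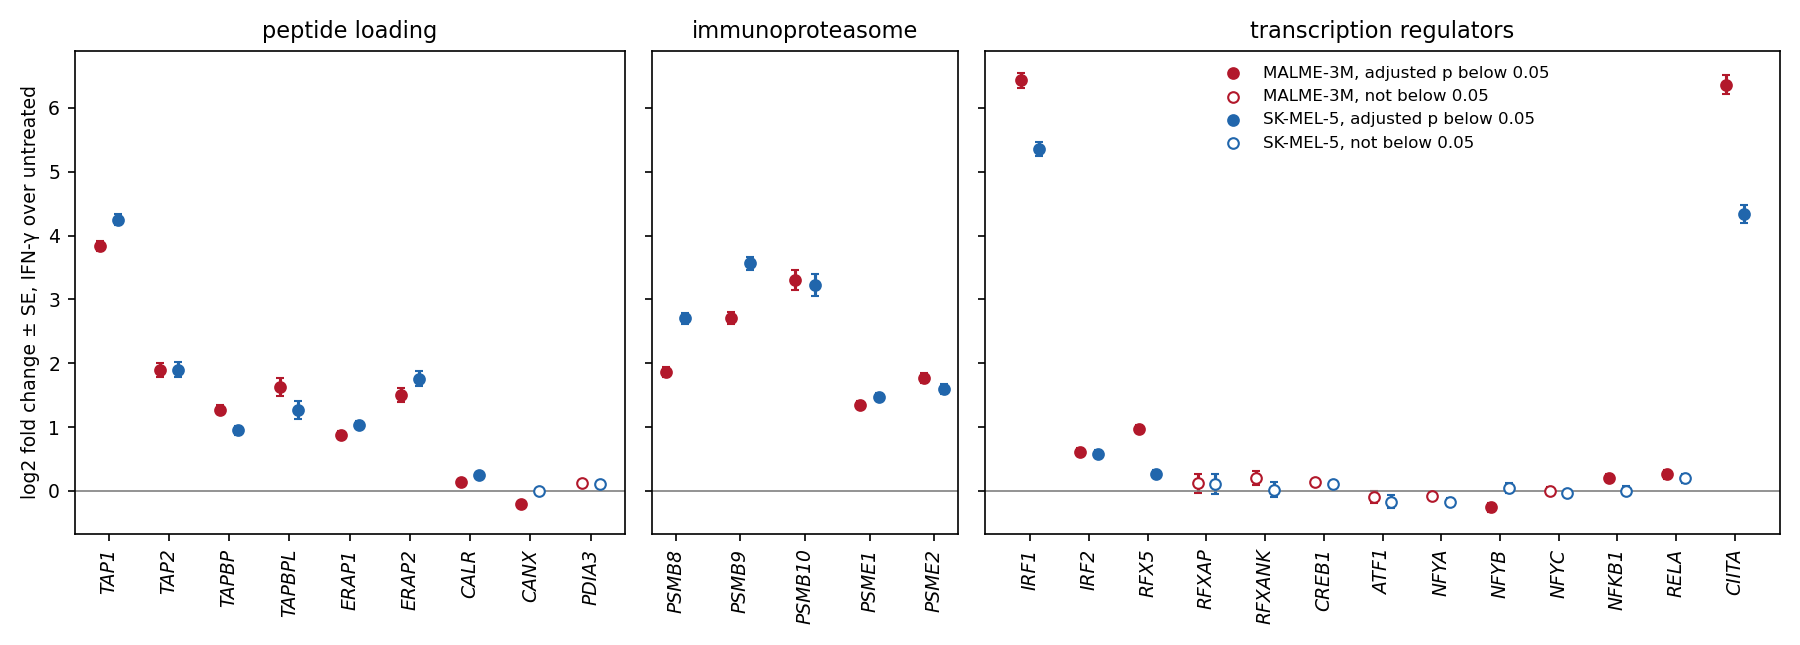
Log2 fold change with IFN-γ (± SE) of genes of peptide loading, the immunoproteasome and class I transcription in MALME-3M (red) and SK-MEL-5 (blue); filled points are called and open points are not. The largest changes are those of IRF1, at 6.43 in MALME-3M and 5.35 in SK-MEL-5, and of CIITA, at 6.36 in MALME-3M and 4.33 in SK-MEL-5.

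Of 8 genes for other proteins that pair with B2M, 3 passed the filter on low counts, and CD1A to CD1E had at most 6 counts in the sum of any group. MR1, which presents vitamin metabolites to MAIT cells, rose in MALME-3M (log2 0.88 ± 0.17 SE, edgeR adjusted p = 0.00124) and was not called in SK-MEL-5 (0.23 ± 0.17, adjusted p = 0.479), and the difference between the lines was not called (adjusted p = 0.163). HFE, a regulator of iron uptake, and FCGRT, the neonatal Fc receptor, were called in neither line. Of 8 class I-like ligands of NKG2D, which need no B2M, 4 were tested, and MICB was called in MALME-3M (0.64 ± 0.14, adjusted p = 0.00275) and not in SK-MEL-5 (0.42 ± 0.16, adjusted p = 0.0952), with no call for the difference (adjusted p = 0.67). None of 15 class I pseudogenes and related transcripts of the region carried a symbol in the count tables.

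Of the nearest tested protein-coding genes on chromosome 6, TCF19, MICA, RPP21, GNL1 and ZFP57 were called in neither line, with adjusted p from 0.0678 to 0.989. On chromosome 15 both neighbours of B2M rose. PATL2, an RNA-binding protein whose gene runs on the other strand and begins 0.171 kb from B2M, rose by 2.04 ± 0.25 in MALME-3M (edgeR adjusted p = 7.99e-06) and 2.51 ± 0.28 in SK-MEL-5 (adjusted p = 2.72e-06) on the log2 scale. TRIM69, a ubiquitin ligase gene 10.1 kb on the far side, rose by 1.33 ± 0.07 in MALME-3M and 1.91 ± 0.07 in SK-MEL-5. PATL2 stayed low, at 7.20 ± 1.72 CPM in treated and 1.75 ± 0.179 CPM in untreated MALME-3M, and 4.98 ± 0.177 CPM in treated and 0.868 ± 0.442 CPM in untreated SK-MEL-5. Around NLRC5, CPNE2 fell by 0.53 ± 0.10 in MALME-3M and by 0.35 ± 0.09 in SK-MEL-5 on the log2 scale, and the log2 fold change of HERPUD1 was 0.25 ± 0.08 in MALME-3M (edgeR adjusted p = 0.0351) and 0.23 ± 0.08 in SK-MEL-5 (adjusted p = 0.0678).

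The 3 named genes nearest to each member in pattern, among those tested, were found by the root mean square difference of log2 levels, centred per gene, over the 4 groups. For B2M they were PARP9 (0.166), C5orf56 (0.167) and LAP3 (0.186). PARP9 and LAP3, an ADP-ribosyltransferase and a peptidase, rose in both lines by folds close to those of B2M. For HLA-E they were ICAM1 (0.114), an adhesion molecule, SAMD9L (0.168) and PSMB9 (0.241), and for HLA-C PARP12 (0.086), IL12A (0.091) and TMEM158 (0.136), where 2 loci without a gene name lay nearer than TMEM158 and were passed over. NLRC5 had CTSS (0.247), TAP1 (0.283) and APOL6 (0.313), and HLA-B had RP11-211G3.2 (0.163), SCN9A (0.224) and IFITM3 (0.303). HLA-F had STAT4 (0.184), ABI3BP (0.202) and UNC5C (0.212), and HLA-G had MDGA1 (0.105), APOBEC3G (0.118) and PSME1 (0.121). Of these genes, RP11-211G3.2, SCN9A, STAT4 and ABI3BP had means below 2 CPM in all 4 groups, and IL12A had at most 2.02 CPM. The other members were left out of this search, and likeness over 4 groups is a description.

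Transcript estimates held a smaller part of HLA-B than of all genes together. Over tested genes present in both tables, estimated counts of annotated transcripts came to 42.8% to 47.2% of the gene counts of a library. For HLA-B they came to 15.2% to 15.6% in treated and 6.57% to 9.27% in untreated MALME-3M, and to 28.3% to 31.7% in treated and 17.1% to 21.0% in untreated SK-MEL-5. For B2M they came to 62.3% to 62.7% in treated and 62.2% to 65.4% in untreated MALME-3M, and to 62.0% to 63.2% in treated and 60.3% to 63.6% in untreated SK-MEL-5, ranges that lie close together, unlike those of HLA-B. The shares of the low genes NLRC5 (6.35% to 39.5% over all libraries) and HLA-G (3.39% to 86.5%) were scattered. The estimated fold of HLA-B was 17.3 in MALME-3M, where gene counts gave 8.72, and 6.09 in SK-MEL-5, where gene counts gave 3.98. Where the remaining HLA-B reads lie was not tested.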

How the data were processed

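Total RNA of 12 libraries was sequenced with a Pico V3 kit, per the labels' protocols, and groups were taken from the line and treatment labels. The authors deposited whole-number read counts per gene symbol without normalization, per the file headers, whose summary lines are those of HTSeq. They also deposited estimated counts and TPM (transcripts per 1e6 transcripts) for each transcript in kallisto format, per the file headers. The build hg38 and the tools HTSeq, kallisto, SAMtools, STAR and cutadapt are named in the submitters' processing notes; for versions, gene annotation and strand setting the sources used here give nothing. HTSeq's summary lines entered neither library sizes nor tests. Alignments reported as not unique, which HTSeq leaves out of gene counts, were 7.47 to 13.7 times the gene counts, so reads shared between HLA genes may be missing from them. Ambiguous reads were 4.19% to 4.54% of the gene counts.

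The edgeR package (4.0.16, in R 4.3.3) was used for gene counts: filterByExpr with a minimum count of 10 (15810 genes; 34075 had a count), TMM scaling and 1 quasi-likelihood model over all 12 libraries with 1 mean per group (8 residual degrees of freedom, biological coefficient of variation 0.0955). Adjusted p-values are Benjamini-Hochberg over all tested genes, the threshold was 0.05, and SE is the log2 fold change over the square root of F. In data simulated for SK-MEL-5 treated against untreated, the model recovered 69.5% of 200 genes changed 2-fold and 98.5% of those at or above 5 CPM, with 3 false calls. Estimated counts were summed over annotated transcripts to genes by GENCODE 29, rounded and used as an alternative. Of 361686 transcripts, 145064 were annotated to a gene with a symbol in the count tables, and the others were left out. Exon lengths are unions over GENCODE 29 transcripts. The summed heavy chains are the 5 analysed here.

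Named genes are the 7 members, up to 3 called genes per list and line with the largest change, the nearest tested protein-coding neighbours, overlapping genes and the 3 nearest patterns; other genes of the lists were named after their values were seen. Beside the 13 transcription factors counted, 1 more that had been listed is not reported here. The members and lists were chosen with earlier results of these data known, and the comparisons between untreated, treated and changed levels share libraries. Alternatives were DESeq2 1.42.0 size factors, upper-quartile scaling, no filter, DESeq2, only the groups compared, estimated counts, TPM and leaving out each library.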

Additional observations from a re-analysis of the deposited data

Results flagged for a closer look

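The change of 4 genes with IFN-γ differed between the lines by a test of the difference itself (edgeR interaction contrast, adjusted over 15810 genes). The change of HLA-B was larger in MALME-3M by 1.13 on the log2 scale (adjusted p = 1.11e-09), that of B2M by 0.41 (adjusted p = 6.30e-04) and that of HLA-C by 0.36 (adjusted p = 0.00713). The change of HLA-E was smaller in MALME-3M, with a difference of -0.32 (adjusted p = 0.00687). The folds were 8.72 in MALME-3M and 3.98 in SK-MEL-5 for HLA-B, 5.00 in MALME-3M and 3.77 in SK-MEL-5 for B2M, 3.41 in MALME-3M and 2.66 in SK-MEL-5 for HLA-C, and 6.42 in MALME-3M and 8.02 in SK-MEL-5 for HLA-E. Line, IFN-γ dose and medium cannot be told apart in these differences.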

How the results depend on the processing

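Leaving out each library in turn kept all 7 genes called in MALME-3M, 6 to 7 in SK-MEL-5, 4 for the difference between lines, 4 to 6 between untreated and 7 between treated lines. With estimated counts of annotated transcripts, 2 genes in place of 4 were called for the difference. Its value was then -0.025 for HLA-C (adjusted p = 0.953) and -1.98 for HLA-G (adjusted p = 0.168), and HLA-B was lower in treated MALME-3M than in treated SK-MEL-5 (-0.32). The HLA-F difference ran from -0.15 to 0.05 when a library was left out, and was positive without SK-MEL-5 untreated replicate 1. By TPM in place of counts per kb, the log2 change of the HLA-B to HLA-C ratio was 2.92 in MALME-3M and 1.24 in SK-MEL-5, and that of the heavy chains to B2M was -0.41 in MALME-3M, where counts gave 0.08, and 0.34 in SK-MEL-5, where counts gave 0.24. Leaving out libraries put the HLA-B to HLA-C change by counts at 1.33 to 1.39 in MALME-3M and 0.54 to 0.60 in SK-MEL-5, and that of the heavy chains to B2M at 0.04 to 0.13 in MALME-3M and 0.22 to 0.29 in SK-MEL-5. The cause was not tested. NLRC5 was no longer called between treated lines with estimated counts (-0.71, adjusted p = 0.178). Over all genes and in either direction, estimated counts called 926 genes in MALME-3M, where gene counts called 2890, 571 in SK-MEL-5 (2060 by gene counts), 134 for the difference (705), 7122 between untreated lines (11336) and 6982 between treated lines (11346). Without SK-MEL-5 untreated replicate 2, 1364 genes were called in SK-MEL-5 in either direction. No paired analysis was possible because the labels carry no replicate numbers. Depth limits HLA-G most, with 12 to 314 counts per library.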

Other observations

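The transcript estimates of HLA-C differed between the lines in a way that gene counts do not show. HLA-C-204, a protein-coding transcript of 782 nt, had 2605, 3259 and 3481 estimated counts in treated and 1300, 1246 and 1345 in untreated MALME-3M, and 0 in all 6 SK-MEL-5 libraries. It held 49.2% of the HLA-C estimate in treated and 60.4% in untreated MALME-3M. HLA-C-202, of 1538 nt, was at 0 in all 6 MALME-3M libraries and had 151, 231 and 130 estimated counts in treated and 23.8, 70.6 and 31.2 in untreated SK-MEL-5. HLA-C-201, of 1536 nt, held 81.3% of the estimate in treated and 85.6% in untreated SK-MEL-5, and 42.1% in treated and 30.4% in untreated MALME-3M. An exact 0 in such a table can be a failed assignment between similar sequences, and the alleles of the lines were not analysed here.

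B2M estimates were led by B2M-212, a transcript of 604 nt annotated for nonsense-mediated decay, which held 60.9% of the gene's estimate in treated and 60.2% in untreated MALME-3M, and 59.5% in treated and 62.9% in untreated SK-MEL-5. B2M-202, a protein-coding transcript of 933 nt, held 22.3% in treated and 19.7% in untreated MALME-3M, and 22.0% in treated and 25.1% in untreated SK-MEL-5. Within treated MALME-3M, B2M-212 had 8343, 10570 and 11070 estimated counts, while B2M-203 had 731, 665 and 57.5. Whether reads were assigned to the right B2M transcript was not tested, so these shares do not establish which transcript the cells make most.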
